A study of Nannochloropsis gaditana with 4 samples.

Results

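The genes described here are named for enzymes that make glycerol-3-phosphate and carry it to diacylglycerol. They belong to *Nannochloropsis gaditana*, a single-celled marine alga that stores oil. They were picked by name from the authors' normalized table: each row whose symbol starts with GPD, together with GPAT, LPAT1, LPAT2, PAP2 and PAP3. This gave 8 of the 44 genes measured. PAP1 bears the same enzyme name as PAP2 and PAP3 but was left out because the authors used it, with cyclophilin (CYP), to normalize the other genes. All 8 members had a value in each repeat of each sample, so none was lost to a filter. The tables list 3 GPD genes (GPD1, GPD2 and GPD3), a single GPAT gene, and a pair each for LPAT and PAP.

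Glycerolipid assembly starts from glycerol-3-phosphate, which glycerol-3-phosphate dehydrogenase (GPD) makes from a glycolytic sugar phosphate. Glycerol-3-phosphate acyltransferase (GPAT) adds a fatty acid to give lysophosphatidic acid, and lysophosphatidic acid acyltransferase (LPAT, given in the tables as 1-acyl-sn-glycerol-3-phosphate acyltransferase) adds another to give phosphatidic acid. Phosphatidic acid phosphatase (PAP) then removes the phosphate to give diacylglycerol, from which algae build both membrane lipids and the storage oil triacylglycerol.

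Transcripts were quantified by SYBR Green real-time PCR in strain CCAP 849/5. Flasks received flashing light at 5, 50 or 500 Hz or continuous light (CL, the control), in batch culture for 13 days with CO2-enriched air. Flashes had a duty cycle of 0.05 and an intensity of 6000 µmol s-1 m-2, and all conditions, CL included, were set to the same time-averaged intensity, 300 µmol s-1 m-2. Each condition is 1 sample of pooled RNA with 3 numbered repeats, and the labels do not say whether repeats are cultures, extracts or wells. The flashing-light values stand in columns headed SAMPLE 2, SAMPLE 3 and SAMPLE 4. No header ties such a column to a frequency, so nothing is said here about frequency.

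Each value is a normalized ratio: the quantity relative to the highest of the gene's 12 values, divided by the authors' factor from CYP and PAP1. Levels can therefore be compared between samples for 1 gene, but not between genes. A change is the difference of mean log2 values over the 3 repeats, and its error is the propagated SD, the root of the summed variances of the repeats in both samples. Since each condition has a single sample, the conditions cannot be tested against each other. A gene was said to rise or fall when its change was at least 2-fold and beyond 2 propagated SDs. These errors cover the spread of the repeats, not that between cultures, and fewer cells carrying a transcript cannot be told apart from less of it per cell. Before division by the authors' factor, the 12 values of a member spanned between 0.78 cycles (PAP3) and 1.43 cycles (GPD2). These spans rest on an amplification base inferred from the ratios, and the numbers of cycles behind them are unknown.

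The flashing-light SAMPLE 2 held the highest mean of GPD1, GPAT, LPAT1, LPAT2 and PAP2, that is, of at least 1 gene at each of the 4 enzyme steps. SAMPLE 4 held the lowest mean of these same 5 genes. GPD2, GPD3 and PAP3 were not highest in SAMPLE 2. Of the 5 genes, LPAT2 in SAMPLE 2 overlapped with CL, at a log2 change of 0.15 ± 0.22. Highest in SAMPLE 2 were 5 of the 8 members, beside 23 of all 36 target genes, near the same share. Lowest in SAMPLE 4 were 5 of the 8, beside 18 of all 36. The difference was largest between the flashing samples themselves: GPD1 fell to 0.475-fold and PAP2 to 0.468-fold in SAMPLE 4 against SAMPLE 2. In that comparison 19.4% of all 36 targets rose or fell. Against CL none of the 8 rose or fell in any flashing sample. Of all targets, 13.9% did so in SAMPLE 2, 2.78% in SAMPLE 3 and 0.0% in SAMPLE 4.

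**Figure D1:**
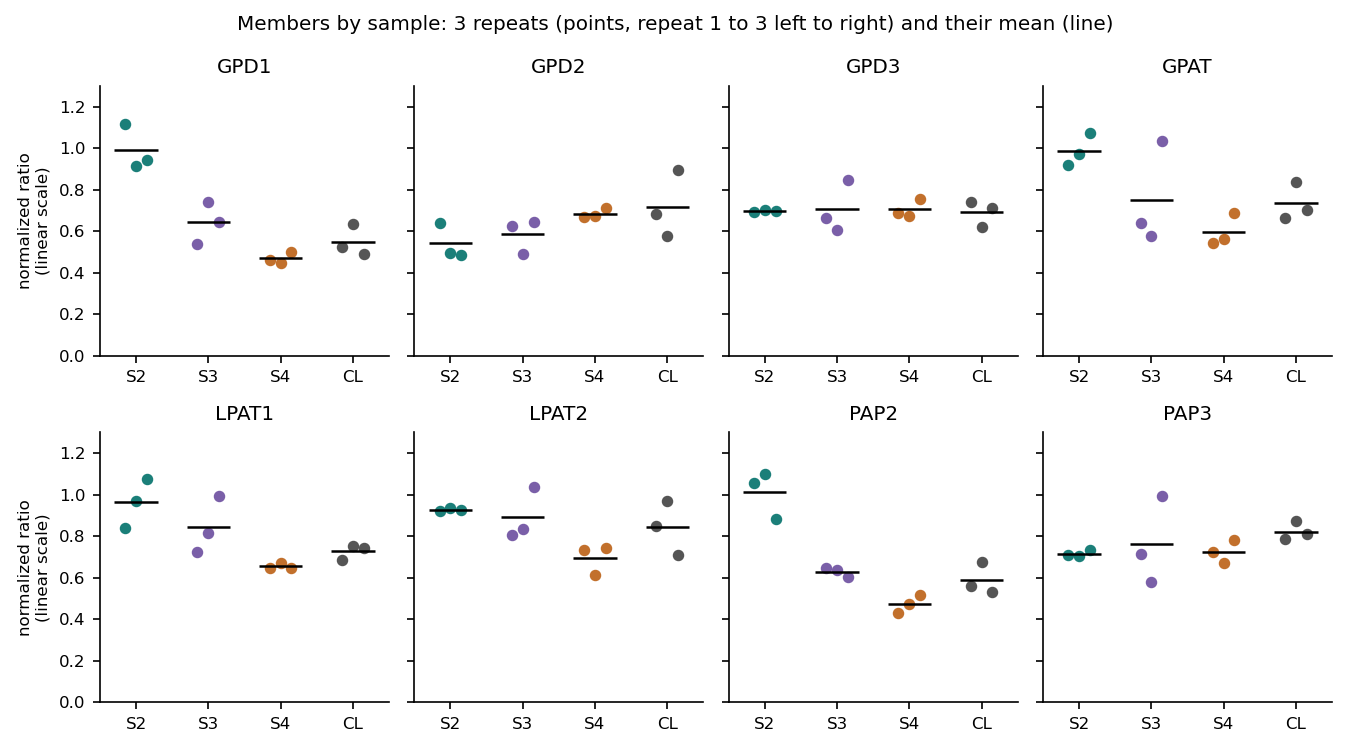
Normalized ratio (linear scale, y axis) of the 8 members in the flashing-light columns SAMPLE 2 (S2), SAMPLE 3 (S3) and SAMPLE 4 (S4) and in continuous light (CL), with points for the 3 repeats and a line for their mean. GPD1 and PAP2 lie highest in S2 with every repeat above 0.88, while the GPD3 means lie between 0.693 and 0.706 in the 4 samples.

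Of the GPD genes, named for the step that supplies the glycerol backbone, GPD1 varied most. GPD1 had normalized ratios of 1.12, 0.914 and 0.943 in SAMPLE 2, 0.541, 0.743 and 0.646 in SAMPLE 3, 0.464, 0.448 and 0.498 in SAMPLE 4, against 0.526, 0.635 and 0.490 in CL. All repeats of SAMPLE 2 lay above all others, SAMPLE 3 overlapped with CL, and CL overlapped with SAMPLE 4. The mean was 0.991 ± 0.110 in SAMPLE 2 and 0.550 ± 0.0754 in CL (SD, n = 3 repeats each), a log2 change of 0.85 ± 0.25, which was beyond 2 propagated SDs but at 1.80-fold short of the rule. SAMPLE 4, with a mean of 0.470 ± 0.0260, stood at −1.07 ± 0.17 against SAMPLE 2 and at −0.22 ± 0.21 against CL. SAMPLE 3 stood at −0.63 ± 0.28 against SAMPLE 2 and at 0.22 ± 0.30 against CL.

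GPD2 and GPD3 carry the same enzyme name as GPD1 but were not highest in SAMPLE 2. GPD2 had 0.641, 0.498 and 0.488 in SAMPLE 2, 0.625, 0.490 and 0.643 in SAMPLE 3, 0.667, 0.673 and 0.711 in SAMPLE 4, against 0.682, 0.579 and 0.896 in CL. The wide CL repeats overlapped with every flashing sample, whereas the SAMPLE 4 repeats lay above those of SAMPLE 2 and SAMPLE 3. The change of GPD2 was −0.39 ± 0.39 in SAMPLE 2 against CL and 0.34 ± 0.22 in SAMPLE 4 against SAMPLE 2. With the authors' factor GPD3 differed least between samples. Its 4 means spanned 0.03 on the log2 scale, the narrowest span of the 36 targets. KAR2, a 3-oxoacyl-ACP reductase of fatty acid synthesis, was next at 0.03. The repeats of GPD3 ranged from 0.693 to 0.702 in SAMPLE 2, 0.604 to 0.849 in SAMPLE 3 and 0.673 to 0.757 in SAMPLE 4. In CL they ranged from 0.623 to 0.744. GPD3 stood at 0.02 ± 0.13 in SAMPLE 2 against CL and at 0.01 ± 0.09 in SAMPLE 4 against SAMPLE 2. Over 11 other choices of reference, GPD3 in SAMPLE 2 against CL ran from −0.58 to 1.62.

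GPAT, which attaches the first fatty acid, had 0.918, 0.971 and 1.08 in SAMPLE 2, 0.641, 0.577 and 1.04 in SAMPLE 3, 0.544, 0.561 and 0.688 in SAMPLE 4, against 0.665, 0.837 and 0.701 in CL. SAMPLE 2 lay above CL and above SAMPLE 4 in every repeat, and SAMPLE 3 spread across both CL and SAMPLE 2. The change was 0.43 ± 0.21 in SAMPLE 2 against CL, −0.30 ± 0.25 in SAMPLE 4 against CL and −0.73 ± 0.22 in SAMPLE 4 against SAMPLE 2. SAMPLE 3 stood at −0.01 ± 0.48 against CL, with repeat 3 at 1.04 and its other repeats at 0.641 and 0.577. In repeat 3 of SAMPLE 3 7 of the 8 members and 22 of the 28 other targets lay above their own SAMPLE 3 mean, with medians of 0.23 and 0.20 log2. The same counts held in repeat 3 of SAMPLE 4, with medians of 0.10 and 0.08 log2.

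Of the LPAT genes, which attach the next fatty acid, LPAT1 was the more separated. LPAT1 had 0.840, 0.972 and 1.08 in SAMPLE 2, 0.723, 0.817 and 0.992 in SAMPLE 3, 0.650, 0.673 and 0.649 in SAMPLE 4, against 0.684, 0.755 and 0.743 in CL. The CL repeats fell between those of SAMPLE 2 and those of SAMPLE 4 without overlap, the gap to SAMPLE 4 being that between 0.684 and 0.673. LPAT1 stood at 0.40 ± 0.20 in SAMPLE 2 against CL, at −0.15 ± 0.08 in SAMPLE 4 against CL and at −0.54 ± 0.18 in SAMPLE 4 against SAMPLE 2. LPAT2 ranged from 0.922 to 0.934 in SAMPLE 2, from 0.808 to 1.04 in SAMPLE 3 and from 0.616 to 0.743 in SAMPLE 4, against 0.711 to 0.969 in CL. Its CL repeats overlapped with all flashing samples, and SAMPLE 4 lay below SAMPLE 2 at −0.42 ± 0.15 and below SAMPLE 3 at −0.35 ± 0.25 in every repeat.

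At the phosphatase step that releases diacylglycerol, PAP2 and PAP3 differed. PAP2 had 1.06, 1.10 and 0.885 in SAMPLE 2, 0.648, 0.636 and 0.603 in SAMPLE 3, 0.430, 0.475 and 0.516 in SAMPLE 4, against 0.560, 0.679 and 0.532 in CL. SAMPLE 2 was above all other repeats and SAMPLE 4 below all others, with SAMPLE 3 and CL overlapping. The mean was 1.01 ± 0.114 in SAMPLE 2, 0.474 ± 0.0428 in SAMPLE 4 and 0.590 ± 0.0779 in CL (SD, n = 3 repeats each). The changes were 0.78 ± 0.25 in SAMPLE 2 against CL, −0.31 ± 0.23 in SAMPLE 4 against CL and −1.10 ± 0.21 in SAMPLE 4 against SAMPLE 2. SAMPLE 3 stood at −0.68 ± 0.18 against SAMPLE 2. PAP3 ranged from 0.704 to 0.733 in SAMPLE 2, 0.582 to 0.995 in SAMPLE 3 and 0.673 to 0.782 in SAMPLE 4, against 0.785 to 0.874 in CL. SAMPLE 2 and SAMPLE 4 lay below CL in every repeat, at −0.20 ± 0.09 and −0.18 ± 0.13, and stood at 0.02 ± 0.11 from each other. The normalizer PAP1, which has the same enzyme name, enters the factor by which PAP2 and PAP3 are divided. With CYP alone as reference PAP2 in SAMPLE 4 against SAMPLE 2 stood at −1.10 ± 0.25, close to the value with both. CYP and PAP1 hardly differed in this comparison, so this says little about other references. Over 11 other choices of reference the PAP2 value ran from −2.98 to −0.29.

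Counted over the 8 genes, SAMPLE 2 against CL gave 0 that passed the rule, where 13.9% of all 36 targets did. The repeats of SAMPLE 2 and CL did not overlap for 5 of 8, GPD1, GPAT, LPAT1 and PAP2 above and PAP3 below, beside 58.3% of all targets, which is near the same share. By direction, these were 4 above, beside 41.7% of all targets, and 1 below, beside 16.7%. The same 5 were beyond 2 propagated SDs, beside 38.9% of all targets. The median change of the 8 was 0.27 and that of all targets 0.20. For SAMPLE 3 against CL, 0 of 8 passed, beside 2.78% of all targets, and 0 were beyond 2 propagated SDs, beside 5.56%. All 8 overlapped with CL, whereas 8.33% of all targets did not, each of them lower. The median was 0.05, and −0.04 over all targets. GPD1 at 0.22 and LPAT1 at 0.20 had the largest upward values of the 36 there, each within its error. For SAMPLE 4 against CL, 0 of 8 passed, beside 0.0% of all targets, and 0 were beyond 2 propagated SDs, beside 5.56%. LPAT1, PAP2 and PAP3 lay below CL without overlap, 3 of 8, beside 19.4% of all targets in either direction and 16.7% below. With 7 of 11 other choices of reference, 0 of 8 were without overlap there. The medians were −0.20 for the members and −0.08 for all targets.

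**Figure D2:**
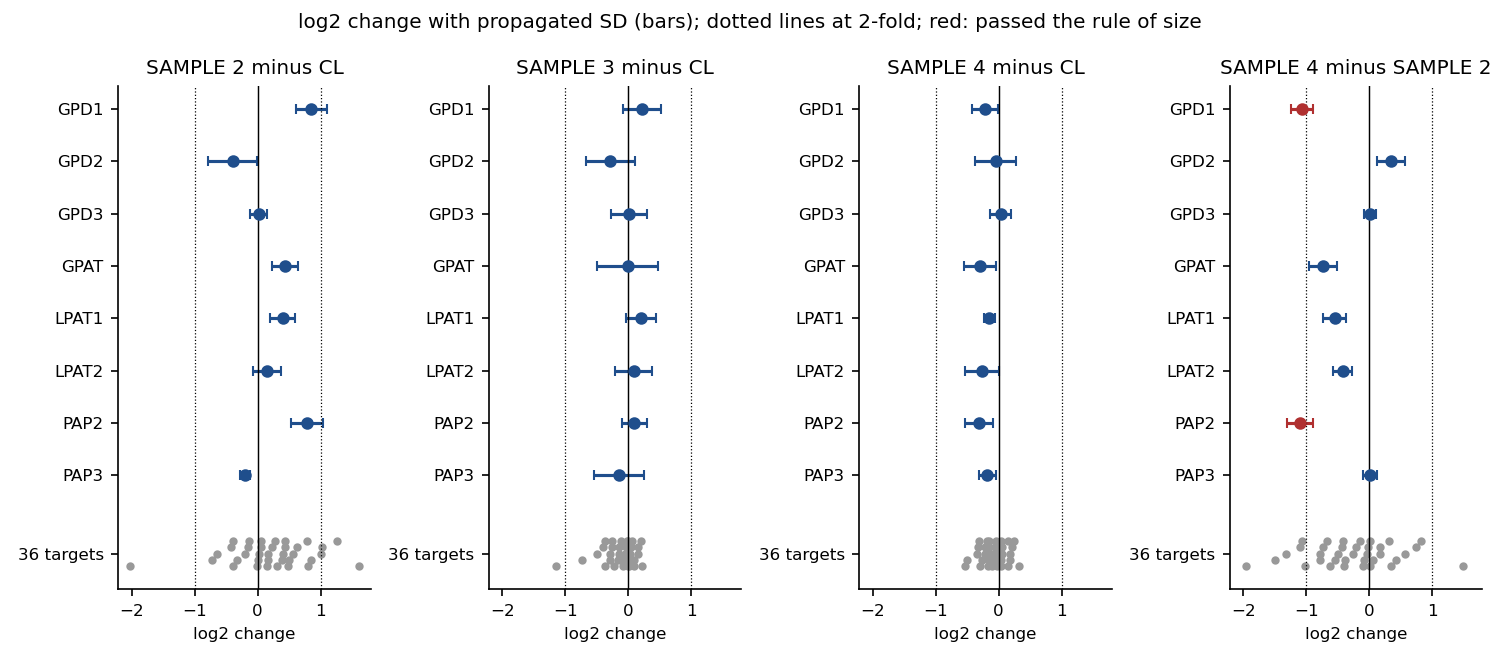
Log2 change (x axis) of each member with its propagated SD as bars, for SAMPLE 2, 3 and 4 against continuous light (CL) and for SAMPLE 4 against SAMPLE 2. Grey points are all 36 targets, members included, and dotted lines mark 2-fold. Only GPD1 at −1.07 and PAP2 at −1.10 in SAMPLE 4 against SAMPLE 2 passed the rule of size (red).

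Between the flashing samples, SAMPLE 4 against SAMPLE 2 gave 2 of 8 that passed, GPD1 and PAP2, both lower, beside 19.4% of all 36 targets. GPD1 and PAP2 were lower in 3 of 3 repeats. GPAT, LPAT1 and LPAT2 were also lower, so that 5 of 8 were beyond 2 propagated SDs, beside 55.6% of all targets, and lower without overlap, beside 52.8%. GPD2 was higher without overlap, 1 of 8 beside 16.7% of all targets. Without overlap in either direction were 6 of 8, beside 69.4% of all targets. The median was −0.48 for the members and −0.23 for all targets. Both calls were close to the 2-fold limit: without repeat 1, GPD1 stood at −0.97 and PAP2 at −0.997, and neither passed. For SAMPLE 3 against SAMPLE 2, 0 of 8 passed, beside 11.1% of all targets. GPD1 and PAP2 lay lower without overlap and beyond 2 propagated SDs. These 2 of 8 stand beside 50.0% of all targets without overlap, made up of 38.9% lower and 11.1% higher, and beside 41.7% beyond 2 propagated SDs. For SAMPLE 4 against SAMPLE 3, 0 of 8 passed, beside 0.0% of all targets. GPD1, LPAT1, LPAT2 and PAP2 were lower without overlap, 4 of 8 beside 16.7% of all targets. GPD2 was higher without overlap, 1 of 8 beside 25.0% of all targets, which makes 5 of 8 beside 41.7% in either direction. Of the 8, only PAP2 at −0.41 ± 0.14 was beyond 2 propagated SDs, beside 13.9% of all targets. These comparisons share samples, SAMPLE 2 or CL entering several, so their values are not independent of each other.

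The ratio of genes at the same step was taken within each numbered repeat. It is free of the reference genes, because both values are divided by the same factor. Its zero is arbitrary, since each gene is scaled to its own highest value, and only its change between samples can be read. The log2 ratio of GPD1 to GPD2 was 0.80, 0.88 and 0.95 in SAMPLE 2, −0.21, 0.60 and 0.01 in SAMPLE 3, −0.52, −0.59 and −0.51 in SAMPLE 4, against −0.37, 0.13 and −0.87 in CL. Every SAMPLE 2 repeat was above every other repeat, and SAMPLE 4 was tightly grouped within the wide range of CL. The ratio rose in SAMPLE 2 against CL by 1.25 ± 0.51 and fell in SAMPLE 4 against SAMPLE 2 by 1.42 ± 0.09 on the log2 scale. The error of 0.09 rests on matching the repeats of both genes by number. The genes' own errors in that comparison were larger, 0.17 for GPD1 and 0.22 for GPD2. The rise against CL passed the rule in 6 of 8 alternative calculations and was 0.96 at its lowest.

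The ratio of GPD1 to GPD3 was 0.84 ± 0.36 above CL in SAMPLE 2 and fell in SAMPLE 4 against SAMPLE 2 by 1.09 ± 0.17. For the phosphatases the log2 ratio of PAP2 to PAP3 was 0.57, 0.65 and 0.27 in SAMPLE 2, −0.14, 0.13 and −0.72 in SAMPLE 3, −0.75, −0.50 and −0.60 in SAMPLE 4, against −0.49, −0.37 and −0.61 in CL. SAMPLE 2 stood apart from all others, and SAMPLE 4 overlapped with CL. The shift was 0.98 ± 0.23 in SAMPLE 2 against CL, just under 2-fold, and the ratio fell in SAMPLE 4 against SAMPLE 2 by 1.11 ± 0.23. The falls of GPD1 to GPD2, GPD1 to GPD3 and PAP2 to PAP3 in SAMPLE 4 against SAMPLE 2 passed the rule in 8 of 8 alternative calculations each at the same thresholds, leaving out any repeat included. These alternatives overlap, since the deposited fold values repeat the subtraction of same-numbered repeats.

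The LPAT pair did not pass in any comparison. The log2 ratio of LPAT1 to LPAT2 differed between samples by 0.25 ± 0.29 at most, in SAMPLE 2 against CL, and its repeats overlapped in each of the 6 comparisons. GPD2 to GPD3 stood at −0.41 ± 0.35 in SAMPLE 2 against CL and at 0.33 ± 0.23 in SAMPLE 4 against SAMPLE 2, and did not pass. In all, 1 of 5 pairs passed in SAMPLE 2 against CL and 3 of 5 in SAMPLE 4 against SAMPLE 2. The pairs that passed in SAMPLE 4 against SAMPLE 2 share GPD1 in 2 cases, and the other holds PAP2. GPD1 and PAP2 also passed alone in that comparison. How many pairs of other targets would pass was not computed, so these counts cannot be read as particular to the members.

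**Figure D3:**
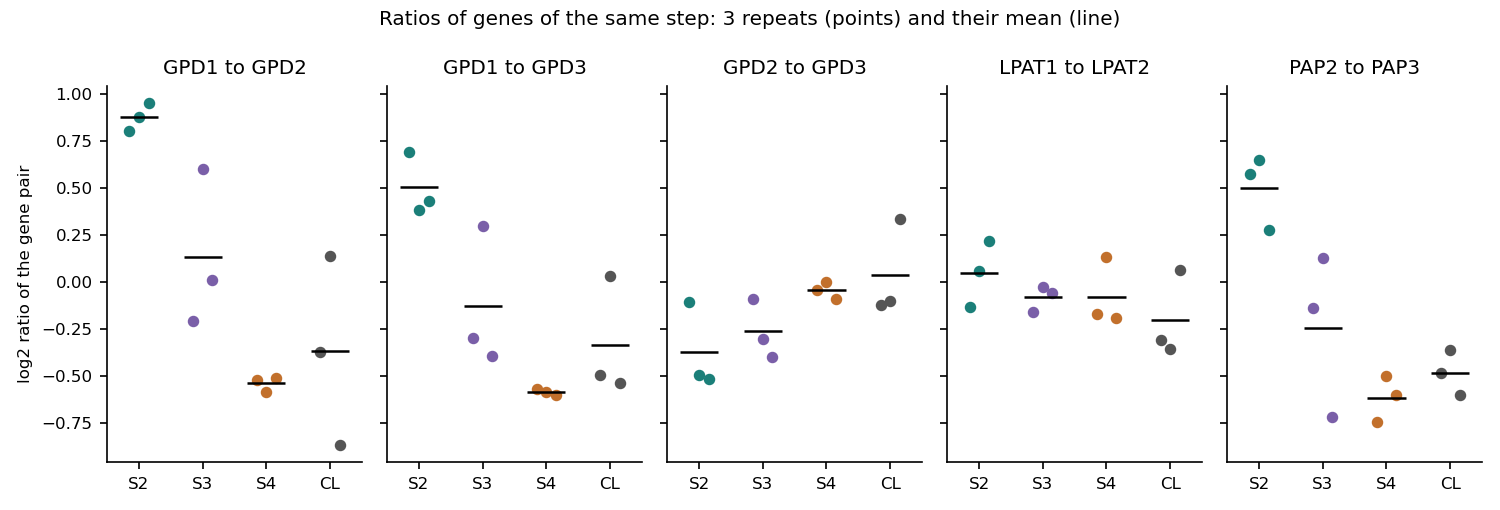
Log2 ratio (y axis) of genes with the same enzyme name, by repeat (points) with the mean (line), in SAMPLE 2, 3 and 4 (S2 to S4) and continuous light (CL). The zero of each panel is arbitrary. The ratios GPD1 to GPD2, GPD1 to GPD3 and PAP2 to PAP3 are highest in S2 with means of 0.88, 0.50 and 0.50, and the LPAT1 to LPAT2 repeats overlap between all samples.

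The size of a change depended on the reference genes, which shift every gene alike within a comparison, and so did the sign for 6 of 8 members in SAMPLE 2 against CL and in SAMPLE 4 against SAMPLE 2. Over 11 other choices of reference, the shift in SAMPLE 2 against CL ran from −0.60 with the ubiquitin family gene UFP to 1.61 with beta tubulin BT, and exceeded 0.1 in 8. GPD1 and PAP2 stayed above CL in SAMPLE 2 under all 11, from 0.25 to 2.46 for GPD1 and from 0.18 to 2.39 for PAP2. The other 6 members changed sign under at least 1 of them. GPAT and LPAT1 did so with UFP alone, at −0.17 and −0.20. The sign held under 9 of 11 for GPD2, 8 for LPAT2 and 6 each for GPD3 and PAP3. PAP3 ran from −0.80 with UFP to 1.41 with BT. Between SAMPLE 4 and SAMPLE 2 the shift ran from −1.88 with BT to 0.81 with UFP. GPD1 and PAP2 stayed lower under all 11, from −2.96 to −0.27 and from −2.98 to −0.29, while GPAT with UFP stood at 0.08 and LPAT1 at 0.26. Among 19 recalculations of that comparison, GPD1 and PAP2 passed the rule in 15 each, the exceptions being UFP, centring on the median target, no reference and leaving out repeat 1. For SAMPLE 2 against CL, GPD1 passed in 4 of 19 and PAP2 in 3 of 19.

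**Figure D4:**
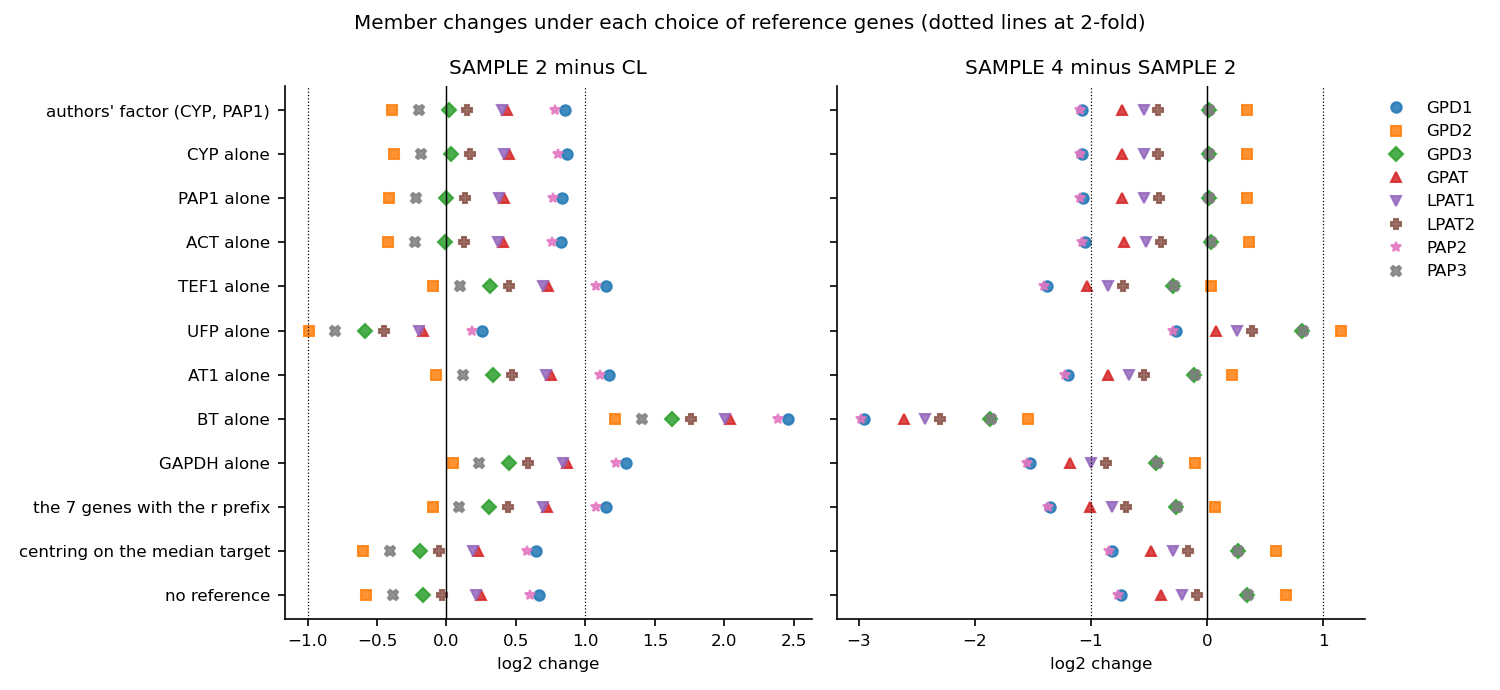
Log2 change (x axis) of the 8 members under the authors' factor and 11 other choices of reference (rows), for SAMPLE 2 against continuous light and SAMPLE 4 against SAMPLE 2, with dotted lines at 2-fold. The order of the members is the same in every row. GPD1 and PAP2 lie farthest right in the left panel and farthest left in the right panel, and the whole row moves with the reference, most with BT.

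Likeness was measured as the root mean square difference between the log2 changes of 2 genes against CL over the 3 flashing samples. For GPD1 the nearest of the other 35 targets was PAP2, and for PAP2 it was GPD1, at 0.10 log2. GPAT was nearest to the violaxanthin de-epoxidase VDE1 (0.08), LPAT1 to the diacylglycerol acyltransferase DGAT2 (0.10), and LPAT2 to ZE (0.08), named zeaxanthin de-epoxidase in the tables. GPD2 was nearest to DGAT1 (0.12), PAP3 to DGAT5 (0.14) and GPD3 to KAR2 (0.03). All these changes use the same CL repeats, so likeness is a description of these samples.

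The next enzymes of the route are the diacylglycerol acyltransferases DGAT1 to DGAT5, which turn diacylglycerol into triacylglycerol. Listed with them were the acyl-CoA synthetases LCS1 and LCS2, which activate the fatty acids and do not follow diacylglycerol. None of these 7 genes passed in any of the 6 comparisons. In SAMPLE 2 against CL they ran from −0.72 ± 0.08 for DGAT3 to 0.56 ± 0.14 for DGAT2, with a median of −0.01 against 0.27 for the 8 members. In SAMPLE 4 against SAMPLE 2 they ran from −0.67 ± 0.18 for DGAT2 to 0.57 ± 0.08 for DGAT3, with a median of 0.06 against −0.48. The difference between these lists was not tested.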

How the data were processed

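The authors deposited 3 tables of 132 rows, 44 genes with 3 repeats each, all holding a linear ratio. Per the file headers these are non-normalized signals, signals normalized to housekeeping genes, and fold values of test over control. The deposited ratio before normalization has its highest value at 1 in all 44 genes. Dividing it by the geometric mean of CYP and PAP1, scaled to a geometric mean of 1, gave the normalized ratio of 43 genes, the 8 members included, within 0.1%. The factor ran from 0.757 to 1.49. The row of MCT instead equalled the factor and was recomputed, a choice made after seeing the data that touches counts, medians and ranks over all targets but no member's value. The non-normalized table lists the row label of PAP3 repeat 2 in place of that of repeat 1. Reading the rows in order matched within a relative 5.04e-06, and exchanging them missed by up to 0.491.

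SAMPLE 1 was taken as CL, since the fold table's divisor is that column in 393 of 396 values and in 72 of 72 for the members, and CL is the only sample labelled control. No threshold cycles were used here, so depth is unknown, and p-values, intervals and detection limits are not given. A single amplification base for each gene, 1.91 to 2.08 among the members, turned all its log ratios into multiples of 0.01 cycle.

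Changes were computed on the log2 scale in Python 3.11.15 with numpy 2.4.6 and pandas 2.3.3. The 36 targets are the genes other than PAP1 and the 7 whose identifier starts with r. All members are named, as are, for each, the nearest target and, of the DGAT and LCS list, genes that passed or were extreme. Members and lists were chosen with earlier results of these data known. Repeat numbers were not used to pair the samples in the main calculation, but the ratios within a step match both genes by repeat number. Of 18 correlations of deviations between same-numbered repeats, from −0.38 to 0.55, 10 exceeded 0.1. Whether same-numbered repeats belong together was not tested. No sequences were used here. The locus identifiers of the genes are not reported here.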

Additional observations from a re-analysis of the deposited data

Results flagged for a closer look

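A member was picked out when all its repeats lay above all CL repeats in 1 flashing sample and below all of them in another. Of 24 checks, 2 met this, and neither difference was tested, since each condition has 1 sample. The 2 of 8 members stand beside 5 of all 36 targets, the other 3 being POR1, ZE and AGPase1, so this is not particular to the members. PAP2 was above CL in SAMPLE 2 and below it in SAMPLE 4, with a difference of 1.10 log2 between these samples. LPAT1 did the same with a difference of 0.54. The margins below CL were narrow: the highest repeat of SAMPLE 4 was 0.516 and the lowest of CL 0.532 for PAP2, and 0.673 in SAMPLE 4 against 0.684 in CL for LPAT1. With UFP alone as reference LPAT1 stood at −0.20 in SAMPLE 2 and 0.06 in SAMPLE 4 against CL, signs opposite to those with the authors' factor. PAP2 kept both signs under all 11 references, but its repeats stayed clear of CL in both samples under 1 of them, PAP1 alone, and those of LPAT1 under 2, CYP alone and PAP1 alone.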

How the results depend on the processing

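Under 22 alternatives 1202 of 1469 recomputed values moved by less than the spread of the repeats or 1.5 times and 267 moved further. The alternatives are not independent of each other. For the members the deposited fold values and the subtraction of same-numbered repeats gave the same result. The median and the arithmetic mean of repeats kept the main error. No called value changed sign. The cause of a move was not tested beyond what a setting fixes: fewer repeats overlap less, and a reference shifts all genes alike. The ratios within a step moved by less than their spread throughout. A replicate block, with same-numbered repeats subtracted from each other, left the 2 calls in SAMPLE 4 against SAMPLE 2 (GPD1 −1.07 ± 0.18, PAP2 −1.10 ± 0.28) and the other counts of members that passed as they were; counts of overlapping repeats were not rerun under it. ACT, TEF1, UFP, AT1, BT and GAPDH stand for each of these reference genes used alone. Members passing in SAMPLE 2 against CL (0) became 5 with BT, 2 with GAPDH, with the 7 genes that carry the r prefix or at 1.5-fold, and 0 to 1 with a repeat left out, 1 without repeat 2, where GPD1 reached 1.01. In SAMPLE 4 against SAMPLE 2 (2) they became 1 with UFP, which is GPD2 at 1.15, 7 with BT, 0 after centring on the median target, with no reference and at 3-fold, and 0 to 2 with a repeat left out. SAMPLE 3 against SAMPLE 2 (0) gave 2 at 1.5-fold, and SAMPLE 4 against SAMPLE 3 (0) gave 1 with BT.

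Members without overlap in SAMPLE 2 against CL (5) became 3 with ACT, 8 with BT and 5 to 8 with a repeat left out. Against CL those of SAMPLE 3 (0) became 6 with BT, 1 with AT1, the 7 genes, centring or no reference, and 2 to 3 with a repeat left out. For SAMPLE 4 against CL (3) they became 1 with CYP or ACT, 5 with PAP1, 0 with TEF1, UFP, AT1, BT, GAPDH, the 7 genes or no reference, and 3 to 6 with a repeat left out. For SAMPLE 3 against SAMPLE 2 (2) they became 4 with TEF1, UFP or centring, 0 with BT, 1 with no reference and 2 to 6 with a repeat left out. With no reference the 6 in SAMPLE 4 against SAMPLE 2 became 2, and in SAMPLE 4 against SAMPLE 3 (5) 1 with UFP, 8 with BT and 0 with no reference.

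The member median in SAMPLE 2 against CL (0.27) became 0.57 with TEF1, −0.32 with UFP, 0.59 with AT1, 1.88 with BT, 0.71 with GAPDH and 0.57 with the 7 genes. With SAMPLE 3 against CL (0.05) it became 0.50 with AT1, 1.36 with BT and 0.38 with the 7 genes, and in SAMPLE 4 against CL (−0.20) −0.48 with BT. In SAMPLE 3 against SAMPLE 2 (−0.13) it became 0.43 with UFP, −0.42 with BT and 0.17 after centring. In SAMPLE 4 against SAMPLE 2 (−0.48) it became −0.79 with TEF1, 0.33 with UFP, −2.36 with BT, −0.93 with GAPDH, −0.76 with the 7 genes, −0.23 after centring and −0.15 with no reference.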

Other observations

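In repeat 2 of SAMPLE 4, 25 of the 44 genes had their highest ratio before normalization, 4 of the 8 members (GPD2, GPD3, LPAT1 and PAP3) among them. Each of these 4 therefore carries the same normalized ratio of 0.673 there, which is 1 over the factor of 1.49 and holds no separate decimal of its own. The factor was 0.757 in repeat 3 of SAMPLE 4, the lowest of all 12.

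The amplification base was inferred from the ratios and is not a measured efficiency. Per cycle it was 2.05 for GPD1, 1.91 for GPD2, 2.04 for GPD3 and 2.01 for GPAT. It was 2.08 for LPAT1, 1.98 for LPAT2, 2.04 for PAP2 and 1.99 for PAP3. With a base of 2 for every gene GPD1 in SAMPLE 4 against SAMPLE 2 stood at −1.04 and PAP2 at −1.07. The repeat SD pooled over samples ran from 0.14 log2 for PAP2 to 0.26 for GPAT, with a median of 0.17 over the members and 0.19 over all targets.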
